A study of Mus musculus with 2 samples.

Results

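Activity-regulated and immediate early genes are genes whose transcripts appear soon after a cell is stimulated, and 40 of them were followed here in mouse cerebral cortex. The 40 were given as a list of symbols, and each symbol was matched to 1 gene identifier among the 55536 gene rows of the deposited tables. By role, 22 encode regulators of transcription and 18 encode effectors, which are kinases, phosphatases, synaptic and secreted proteins, receptors and small G proteins. The samples were the left cortices of 2 males aged 2 months, whose strain, B6CASTF1/J, is the F1 hybrid between C57BL/6J and CAST/EiJ. Each library was made from 300 ng of total RNA with ERCC synthetic RNAs added. Both animals belong to 1 group, so there is no treated or control group, and replicate 2 is set beside replicate 1 throughout as 1 animal against 1 animal. Per the labels, the tissue samples are separate and the males carry different numbers, under 1 shared donor record. No stimulus, light cycle or time of death is given in the labels, and the cortex was taken as bulk tissue, so more cells of a type and more RNA per cell cannot be told apart.

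Immediate early genes are transcribed without new protein synthesis, because the factors that switch them on are already present in the resting cell. In neurons, synaptic activity raises calcium and cyclic AMP, and kinases then act on the factors CREB, SRF with its ELK partners, and MEF2. The first products include transcription factors such as FOS, EGR1 and NPAS4, which in turn bind the control regions of later genes. Other products act directly, as ARC does at the synapse and the DUSP phosphatases do on MAP kinases, where they limit the signal that induced them. Their mRNAs are mostly short-lived, and several carry AU-rich elements in the 3' untranslated region.

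The libraries held 32032103 expected counts in replicate 2 and 32866391 in replicate 1. Expected counts are estimated read numbers per gene, and levels are given in TPM, a length-corrected share of the library's transcripts. The deposited posterior SD of the count was 0 for all 40 members in both libraries. Cortical identity was checked with marker genes: the 5 excitatory neuron markers summed to 2686 TPM in replicate 2 and 2599 TPM in replicate 1, and no marker of the neuronal, glial and vascular lists was at 0.

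Nearly all members were expressed in this tissue, and a small number held much of the total. At 1 TPM or more in both libraries, 38 of the 40 members were detected, the exceptions being Maff and Atf3. Together the members summed to 1169 TPM in replicate 2 and 994 TPM in replicate 1, a mean of 1082 ± 123 (SD, n = 2). The 5 highest members, Plk2, Jund, Egr1, Arc and Egr3, held 44.3% of that sum in replicate 2 and 45.5% in replicate 1. Mean levels were at least 50 TPM for 7 members, from 5 to under 50 TPM for 28, from 1 to under 5 TPM for 3 and under 1 TPM for 2. Plk2 stood above 94.6% of the 14989 genes detected at this limit, Jund above 94.1% and Egr1 above 91.9%, whereas Klf4 stood above 19.3%.

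Regulators of transcription summed to 647 TPM in replicate 2 and 571 TPM in replicate 1, and effectors to 522 TPM in replicate 2 and 424 TPM in replicate 1. The ratio of the regulator sum to the effector sum was 1.24 in replicate 2 and 1.35 in replicate 1. The median member level was 11.8 TPM in replicate 2 and 10.8 TPM in replicate 1.

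**Figure D1:**
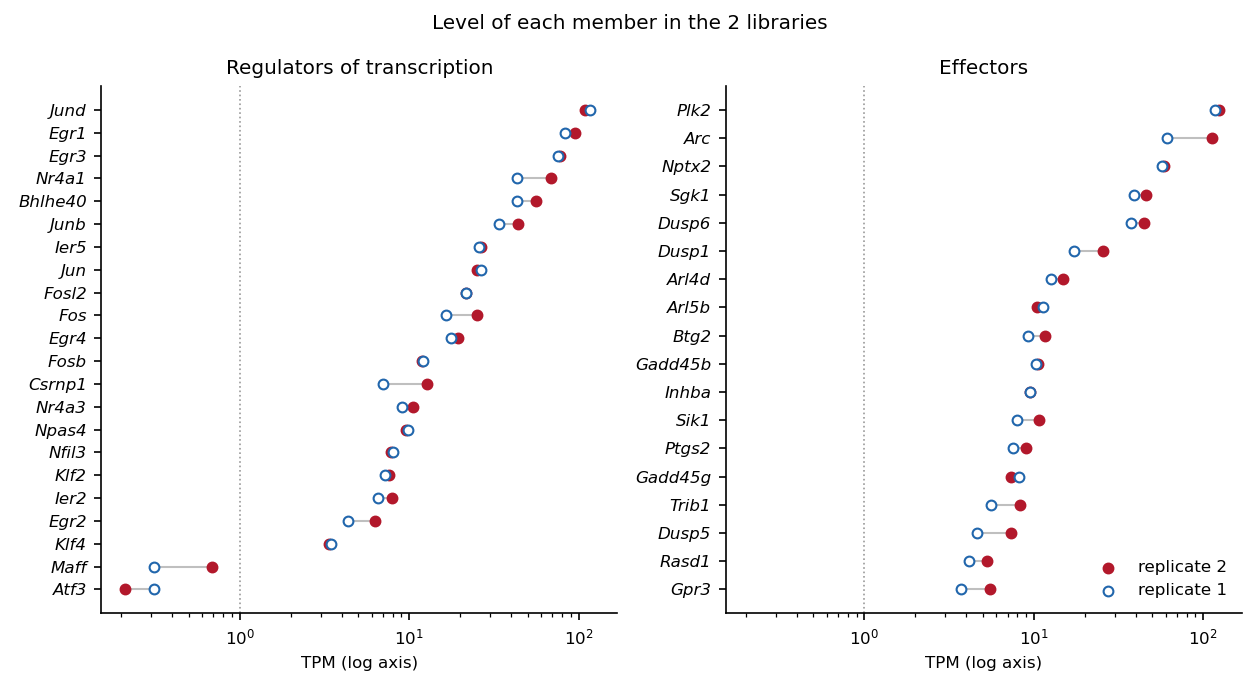
Level of each member in TPM on a log axis, regulators of transcription in the left panel and effectors in the right panel, with replicate 2 as filled points, replicate 1 as open points and a dotted line at 1 TPM. Arc, Nr4a1, Csrnp1 and Fos show wide gaps with replicate 2 higher, while Plk2, Fosb, Fosl2, Npas4 and Inhba have nearly overlapping points; only Maff and Atf3 lie under 1 TPM.

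The AP-1 family, whose FOS and JUN proteins pair to bind DNA, was led by Jund, the member known for steady expression in resting cells. Jund (ENSMUSG00000071076.6, chr8:70698949-70700616, mm10, a single-exon gene) had 109.22 TPM in replicate 2 and 116.14 TPM in replicate 1, which was 46.1% of the summed AP-1 TPM in replicate 2 and 51.2% in replicate 1. Junb followed with 43.94 TPM in replicate 2 and 34.08 TPM in replicate 1, and Jun had 25.05 TPM in replicate 2 and 26.58 TPM in replicate 1. Fos (ENSMUSG00000021250.13, chr12:85473890-85477273), the classic marker of recent neuronal activity, had 25.12 TPM in replicate 2 and 16.46 TPM in replicate 1. The other FOS subfamily genes were level between the animals: Fosb had 11.94 TPM in replicate 2 and 12.05 TPM in replicate 1, and Fosl2 had 21.67 TPM in replicate 2 and 21.62 TPM in replicate 1. The within-library ratio of Fos to Fosb was 2.10 in replicate 2 and 1.37 in replicate 1.

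Among the EGR zinc finger factors, Egr1 and Egr3 were abundant and Egr2 was scarce. Egr1 (ENSMUSG00000038418.7) had 94.75 TPM in replicate 2 and 82.76 TPM in replicate 1, and Egr3 had 77.61 TPM in replicate 2 and 75.14 TPM in replicate 1. Their order was the same in both animals, with an Egr1 to Egr3 ratio of 1.16 ± 0.0845 (SD, n = 2). Egr4 had 19.32 TPM in replicate 2 and 17.67 TPM in replicate 1, and Egr2, which also marks myelinating Schwann cells, had 6.27 TPM in replicate 2 and 4.34 TPM in replicate 1. Egr1 thus stood 15.1-fold above Egr2 in replicate 2 and 19.1-fold in replicate 1.

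Other regulators lay between 0.260 TPM for Atf3 and 55.8 TPM for Nr4a1 in mean level. The orphan nuclear receptor gene Nr4a1 (ENSMUSG00000023034.7, chr15:101254269-101274795) had 68.47 TPM in replicate 2 and 43.04 TPM in replicate 1, and made 86.6% of its sum with Nr4a3 in replicate 2 and 82.5% in replicate 1. Bhlhe40, a basic helix-loop-helix repressor that also takes part in the circadian clock, had 56.14 TPM in replicate 2 and 43.14 TPM in replicate 1. Npas4, a neuron-restricted factor induced by depolarisation, was at 9.59 TPM in replicate 2 and 9.82 TPM in replicate 1, so the animals nearly coincided there. Csrnp1, a nuclear protein that activates transcription, had 12.69 TPM in replicate 2 and 7.05 TPM in replicate 1. Nr4a3 had 10.55 TPM in replicate 2 and 9.12 TPM in replicate 1. The remaining regulators, Ier2, Ier5, Klf2, Klf4 and the bZIP repressor gene Nfil3, had mean levels from 3.42 TPM for Klf4 to 26.3 TPM for Ier5. The scarcest were Maff, a small MAF factor with 23 counts in replicate 2 and 12 in replicate 1, and Atf3, a stress-induced bZIP factor with 7 counts in replicate 2 and 12 in replicate 1.

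Of the effectors, the kinase gene Plk2 and the synaptic gene Arc had the highest mean levels. Plk2, whose kinase acts in the downscaling of synapses, had 123.12 TPM in replicate 2 and 116.91 TPM in replicate 1. Arc (ENSMUSG00000022602.14, chr15:74669083-74672570), which encodes a capsid-forming protein that promotes AMPA receptor endocytosis, had 113.26 TPM in replicate 2 and 61.26 TPM in replicate 1. The ratio of Arc to Plk2 was therefore 0.920 in replicate 2 and 0.524 in replicate 1. Nptx2, a secreted pentraxin that clusters AMPA receptors, had 58.55 TPM in replicate 2 and 57.0 TPM in replicate 1, and the activin subunit gene Inhba had 9.53 TPM in both. Ptgs2, the inducible cyclooxygenase, had 9.0 TPM in replicate 2 and 7.5 TPM in replicate 1. Arc was therefore close to Nptx2 in replicate 1 and close to Plk2 in replicate 2.

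The MAP kinase phosphatase genes were led by Dusp6, the phosphatase of cytoplasmic ERK, with 44.8 TPM in replicate 2 and 37.63 TPM in replicate 1. Dusp1, a nuclear phosphatase, had 25.63 TPM in replicate 2 and 17.2 TPM in replicate 1, and Dusp5, which acts on nuclear ERK, had 7.39 TPM in replicate 2 and 4.64 TPM in replicate 1. The kinase gene Sgk1, known as a glucocorticoid and serum response gene, had 46.05 TPM in replicate 2 and 38.88 TPM in replicate 1. Sik1, a kinase that restrains CREB coactivators, had 10.81 TPM in replicate 2 and 8.01 TPM in replicate 1, and the pseudokinase gene Trib1 had 8.32 TPM in replicate 2 and 5.58 TPM in replicate 1.

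The remaining effectors lay in the middle or at the low end of the range. Of the genes tied to growth arrest and repair, Btg2 had 11.59 TPM in replicate 2 and 9.26 TPM in replicate 1, and Gadd45b had 10.58 TPM in replicate 2 and 10.31 TPM in replicate 1. Gadd45g had 7.36 TPM in replicate 2 and 8.21 TPM in replicate 1. Of the small G protein genes, Arl4d had 14.81 TPM in replicate 2 and 12.71 TPM in replicate 1, and Rasd1, a Ras relative induced by dexamethasone, had 5.29 TPM in replicate 2 and 4.16 TPM in replicate 1. Arl5b had 10.4 TPM in replicate 2 and 11.3 TPM in replicate 1, although its counts were 975 in replicate 2 and 890 in replicate 1. Gpr3, a receptor that raises cyclic AMP without a ligand, had 5.52 TPM in replicate 2 and 3.74 TPM in replicate 1, and 205 counts in replicate 2 and 167 in replicate 1.

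Between the animals, the members were on the whole higher in replicate 2, and no measured member was lower by 20% or more. The measure is the log2 ratio of replicate 2 over replicate 1 from TMM-normalised CPM, computed where the mean count reached 10, as it did for 39 members. Its 95% interval covers counting error only, and with 1 animal on each side no p-value is given and the ratio has no replicate check. The median log2 ratio was 0.22 over the 39 members, beside 0.00 over all 18490 genes measured, and 33 of the 39 were above 0. The members were chosen with earlier results of these data known, so their comparison with all genes is a description only. As a limit of size, a ratio at least 25% above or 20% below equality was used, which is the same distance on the log scale. At least 25% higher in replicate 2 were 14 of the 39 members, beside 11.4% of all genes measured, and 0 were at least 20% lower, beside 6.66% of all genes. Among the better counted, at mean counts from 100 up, 13 of 38 members were at least 25% higher, beside 3.17% of 12817 genes, and 0 were at least 20% lower, beside 2.37%. At 1.5-fold, a limit added after the data were seen, 7 of these 38 were higher, beside 0.640% of genes. The counting interval lay above equality for 23 members, beside 11.0% of genes, and below it for 1, Jund, beside 11.6% of genes. These interval shares are over genes at mean counts from 10 up, many with fewer counts and wider intervals than most members. Interval shares at mean counts from 100 up were not computed. At the edge of the limit, Gpr3 was inside at 1.251-fold and Bhlhe40 outside at 1.248-fold.

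Ratios are relative to the other genes of each library. Scaling by the spike-in RNAs instead moved the median of all genes to 0.32, about 25% higher, and that of the members to 0.54. With this scaling 33 members were at least 25% higher and 0 at least 20% lower, and Jund turned to 0.23. These counts include the shift of all genes, whose median then lay at about the 25% limit. The share of all genes past the limit with this scaling was not computed. Of the 14 members, Btg2, Rasd1 and Gpr3 dropped under the limit in at least 1 of the alternatives, which are Btg2 and Rasd1 with log2(TPM + 1), Btg2 with log2(TPM + 0.1), Gpr3 with no count minimum, and Btg2 and Gpr3 in the second deposited quantification.

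**Figure D2:**
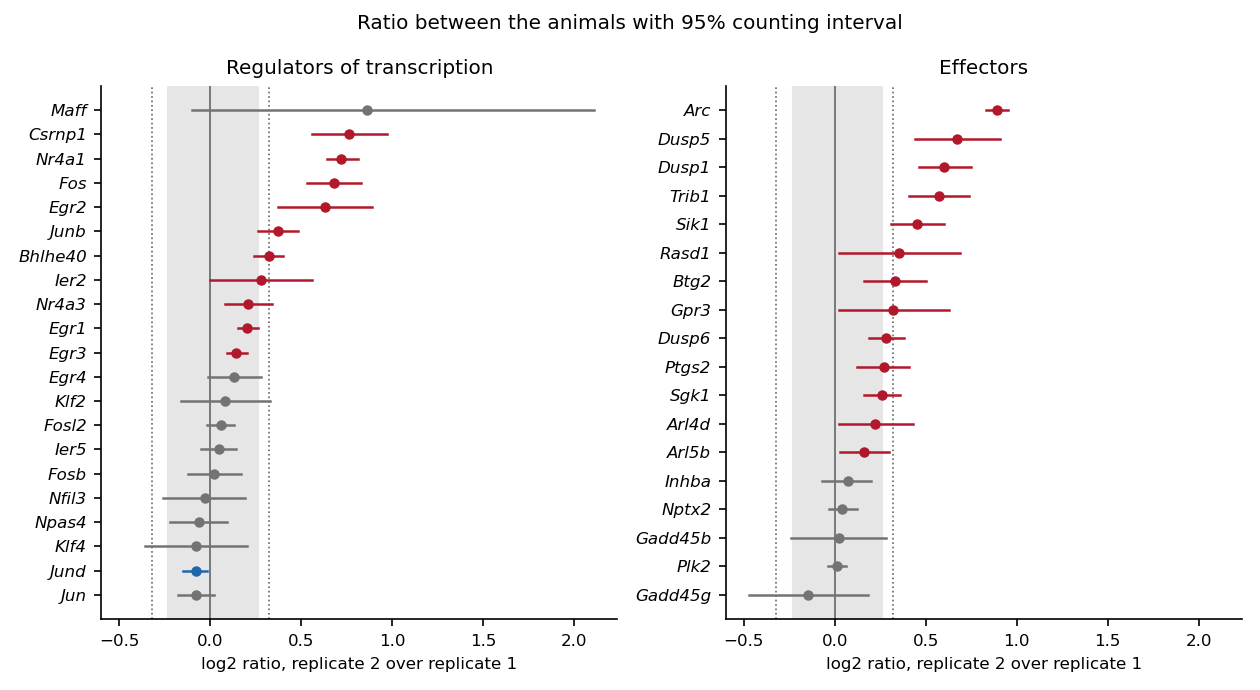
Log2 ratio of replicate 2 over replicate 1 for the 39 measured members, with regulators in the left panel and effectors in the right panel, and bars for the 95% counting interval. Red marks intervals above 0, blue an interval below 0 and grey those that cover 0; dotted lines mark 25% above and 20% below equality, and the shaded band runs from -0.23 to 0.26, the 5th to 95th percentile of all genes at mean counts from 100 up. Points run from Arc at 0.89 to Gadd45g at -0.15, and the bar of Maff spans -0.10 to 2.11.

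Arc had the highest ratio, with 7153 counts in replicate 2 and 3942 in replicate 1, a log2 ratio of 0.89 (95% interval 0.83 to 0.95). Of the difference of 174 TPM between the member sums, Arc alone made 29.9%, and Arc with Nr4a1 made 44.5%. Among regulators, Nr4a1 had a log2 ratio of 0.72 (0.64 to 0.81), with 3188 counts in replicate 2 and 1970 in replicate 1. Csrnp1 had 540 counts in replicate 2 and 325 in replicate 1, with a log2 ratio of 0.76 (0.56 to 0.97). Fos had 881 counts in replicate 2 and 562 in replicate 1, with 0.68 (0.53 to 0.83). These 4 intervals lie wholly above the limit of 25%, as do those of Dusp1 at 0.60 (0.46 to 0.75), Dusp5 at 0.67 (0.44 to 0.91), Egr2 at 0.63 (0.37 to 0.89) and Trib1 at 0.57 (0.41 to 0.74). Maff reached 0.86 on few counts, and its interval, -0.10 to 2.11, covers equality.

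Regulators of transcription and effectors overlapped in their ratios. The median was 0.14 for 21 regulators and 0.28 for 18 effectors. At least 25% higher were 6 of the 21 regulators, namely Maff, Csrnp1, Nr4a1, Fos, Egr2 and Junb, and 8 of the 18 effectors, namely Arc, Dusp5, Dusp1, Trib1, Sik1, Rasd1, Btg2 and Gpr3. The share of all genes measured was 11.4%. At mean counts from 100 up these were 5 of 20 regulators and 8 of 18 effectors, beside 3.17% of 12817 genes. The counting interval was above equality for 10 regulators and 13 effectors, below it for 1 regulator and 0 effectors, and covered it for 10 regulators and 5 effectors. Over all genes at mean counts from 10 up, many less well counted than the members, 11.0% of intervals lay above equality and 11.6% below it. The difference between the classes was not tested, since members of a class are not replicates.

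Families were not uniform. All 3 MAP kinase phosphatase genes had intervals above equality, including Dusp6 at 0.28 (0.19 to 0.38). The intervals of all 4 G protein and receptor genes were also above equality, but each began close to it. These were Arl5b at 0.16 (0.03 to 0.30), which turned to -0.11 with log2(TPM + 1), Arl4d at 0.22 (0.02 to 0.43), Gpr3 at 0.32 (0.02 to 0.63) and Rasd1 at 0.35 (0.02 to 0.69). In the AP-1 family, Fos and Junb, at 0.37 (0.26 to 0.48), were above, while Jun at -0.08 (-0.18 to 0.02), Fosb at 0.02 (-0.12 to 0.17) and Fosl2 at 0.06 (-0.02 to 0.13) covered equality. Within the EGR family, Egr2 was highest, Egr1 at 0.20 (0.15 to 0.26) and Egr3 at 0.14 (0.09 to 0.20) were modestly above 0, and the interval of Egr4 reached from -0.01 to 0.28. Of the kinases, Sik1 was at 0.45 (0.31 to 0.60), Sgk1 at 0.26 (0.16 to 0.36) and Plk2 at 0.01 (-0.04 to 0.06). Nr4a3 was at 0.21, below its relative Nr4a1. Bhlhe40 was at 0.32 (0.24 to 0.40), Ier2 at 0.28 and Ptgs2 at 0.27.

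Several members that activity is known to induce strongly were level between the animals. The interval of Npas4 ran from -0.22 to 0.09, that of Nptx2 from -0.03 to 0.12 and that of Inhba from -0.07 to 0.20. Gadd45b at 0.02, Gadd45g at -0.15, Klf2 at 0.08, Klf4 at -0.08, Nfil3 at -0.03 and Ier5 at 0.05 also had intervals that cover equality. For the less abundant of these the interval is wide, as for Gadd45g (-0.47 to 0.18), which reaches past 20% lower, whereas the narrow interval of Plk2 lies well inside both limits.

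The RNA of replicate 2 also differed from that of replicate 1 in markers of neighbouring tissue. All 8 striatal markers were at least 20% lower in replicate 2, with a median log2 ratio of -1.01 and a sum of 172 TPM in replicate 2 and 312 TPM in replicate 1. The choroid plexus gene Ttr had 89.16 TPM in replicate 2 and 8.58 TPM in replicate 1, and the 5 choroid plexus markers summed to 93.2 TPM in replicate 2 and 11.0 TPM in replicate 1, with Folr1 at 0 in replicate 1. The 5 oligodendrocyte markers all had intervals below equality, a median of -0.27 and a sum of 620 TPM in replicate 2 and 766 TPM in replicate 1. The 5 blood markers had a median of -0.25, with 4 intervals below equality and 2 markers at least 20% lower. The median was 0.01 for 5 excitatory neuron markers, with 1 interval above and 1 below equality, -0.11 for 6 inhibitory neuron markers, with 4 intervals below, and -0.08 for 5 astrocyte markers, with 3 below. It was -0.05 for 5 microglial markers, with 1 interval below, and 0.08 for 5 endothelial markers, with 1 above and 1 below. Inhibitory neuron markers summed to 512 TPM in replicate 2 and 553 TPM in replicate 1, and astrocyte markers to 321 TPM in replicate 2 and 337 TPM in replicate 1. Microglial markers summed to 86.3 TPM in replicate 2 and 94.1 TPM in replicate 1, endothelial markers to 57.2 TPM in replicate 2 and 59.0 TPM in replicate 1, and blood markers to 379 TPM in replicate 2 and 463 TPM in replicate 1. The part of these markers in the members' ratios was not tested.

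Other activity-regulated genes, in a list chosen with earlier results of these data known, did not share the members' median. A list of 30 such genes outside the 40, of which 29 were measured, had a median log2 ratio of 0.00. Of these, 4 were at least 25% higher and 2 at least 20% lower in replicate 2, beside 11.4% and 6.66% of all genes measured. Most of the list had mean counts from 100 up, where the shares of all genes were smaller, at 3.17% and 2.37%. Their counting intervals lay above equality for 5, beside 11.0% of all genes, below it for 5, beside 11.6%, and covered it for 19. The most abundant were level or nearly so: the neuropeptide precursor gene Vgf had 191.27 TPM in replicate 2 and 191.58 TPM in replicate 1 (log2 ratio -0.05), the postsynaptic scaffold gene Homer1 had 168.15 TPM in replicate 2 and 169.31 TPM in replicate 1 (0.00), and Nrn1 had 169.47 TPM in replicate 2 and 169.26 TPM in replicate 1 (0.00). The highest ratios among those of at least 100 mean counts were those of Klf10 (0.44), Tiparp (0.44) and the clock gene Per1 (0.43). The lowest were those of the enkephalin gene Penk (-0.89), which is also in the striatal list, the NR4A family gene Nr4a2 (-0.63) and the corticotropin-releasing hormone gene Crh (-0.29). Nr4a2 had 16.85 TPM in replicate 2 and 24.4 TPM in replicate 1, so the 3 NR4A genes did not go one way.

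Genes that act upstream of the immediate early genes differed little in the size of their ratios. Of 32 listed regulators, which include CREB and its coactivators, SRF and its partners, MEF2 factors and the kinases and phosphatases of the calcium and ERK routes, 31 were measured, with a median log2 ratio of 0.02. The CREB coactivator gene Crtc2, at 0.33, was the 1 gene at least 25% higher, and 0 were at least 20% lower, beside 11.4% and 6.66% of all genes. All 31 had mean counts from 100 up, where the shares of all genes were 3.17% and 2.37%, so the count higher was near the share. Counting intervals lay above equality for 7, beside 11.0% of all genes, below it for 4, beside 11.6%, and covered it for 20. Next highest were Atf1 and Elk3, both at 0.26, and the lowest were Prkaca at -0.15, Mef2a at -0.14 and Rps6ka5 at -0.13. The intervals of Elk3 (-0.01 to 0.54) and Rps6ka5 (-0.28 to 0.01) cover equality. The most abundant were Camk2a, with 1181.3 TPM in replicate 2 and 1096.0 TPM in replicate 1, Ppp3ca, with 391.99 TPM in replicate 2 and 402.33 TPM in replicate 1, and Mef2c, with 285.77 TPM in replicate 2 and 284.68 TPM in replicate 1.

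**Figure D3:**
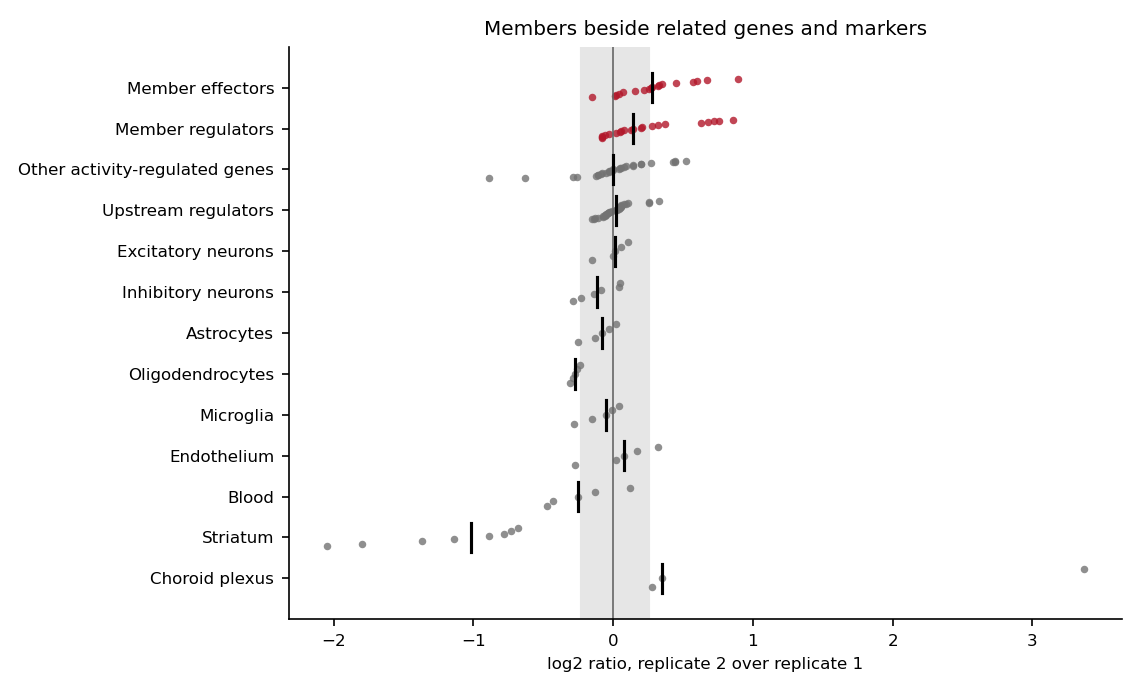
Log2 ratio of replicate 2 over replicate 1 for every measured gene of the member classes (red) and of the related and marker lists (grey), with a black bar at each list's median and a shaded band from -0.23 to 0.26 for the 5th to 95th percentile of genes at mean counts from 100 up. Effectors, with a median of 0.28, and regulators, with 0.14, lie to the right of the other activity-regulated genes and the upstream regulators, while striatal markers lie at -1.01 and Ttr at 3.37.

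Promoter sequence of the members was examined for words that the upstream factors read. RefSeq promoter windows, from 250 bases before to 50 after a start on GRCm38.p6, which is the mm10 build, were matched by symbol for 31 of the 40 members. Arc, Egr1, Egr3, Ier2, Sik1, Nptx2, Rasd1, Bhlhe40 and Trib1 had no matched window and were not searched. Sequence outside the windows was not searched for any member, so a word further upstream is not counted. Each window was searched on both strands, and a gene counted once if any of its windows held a match. The CRE core TGACG, which is contained in the complete CRE TGACGTCA and which CREB and related factors bind, was found for 23 of 31 members, or 74.2%, against 33.6% of 12046 measured genes and 23.0% of all 27025 genes with a window. The complete CRE was found for 6 members, or 19.4%, against 3.40% of measured genes and 2.03% of all genes with a window, and these were Dusp1, Btg2, Maff, Plk2, Arl4d and Arl5b. An EGR word, GCGNGGGCG, was found for 10 members, or 32.3%, against 1451 of the 12046 measured genes and 6.27% of all genes, and the E-box CACGTG for 9 members, or 29.0%, against 11.1% of measured and 8.09% of all genes. The TATA word TATAAA was found for 6 members, or 19.4%, against 9.19% of measured genes but 15.7% of all genes, and the CArG box, read by SRF, for Egr2 and Dusp5, or 6.45%, against 1.60% of measured and 1.81% of all genes. The AP-1 word TGANTCA was found for 2 members, or 6.45%, against 6.14% of measured and 8.97% of all genes. These are matches of letters and not measured binding, and members with several listed starts had more windows to match.

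The 250 bases before the start are printed for the members with a CRE core match that had at least 1.5-fold higher levels in replicate 2 and a counting interval above equality. They are RefSeq sequence on mm10, 5' to 3' on the gene's strand, with CRE core matches on either strand in capitals.
Csrnp1, chr9:119984743-119984992, minus strand: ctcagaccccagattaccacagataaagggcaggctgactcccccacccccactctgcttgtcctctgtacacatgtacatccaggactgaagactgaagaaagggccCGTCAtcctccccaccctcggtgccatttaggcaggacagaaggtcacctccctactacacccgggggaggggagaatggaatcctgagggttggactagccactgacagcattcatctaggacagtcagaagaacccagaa
Nr4a1, chr15:101266596-101266845, plus strand: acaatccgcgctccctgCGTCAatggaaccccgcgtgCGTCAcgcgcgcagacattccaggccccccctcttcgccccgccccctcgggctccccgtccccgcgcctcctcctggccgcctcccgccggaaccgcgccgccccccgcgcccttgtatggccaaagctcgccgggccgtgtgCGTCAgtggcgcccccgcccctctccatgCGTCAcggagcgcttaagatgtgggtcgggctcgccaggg
Fos, chr12:85473640-85473889, plus strand: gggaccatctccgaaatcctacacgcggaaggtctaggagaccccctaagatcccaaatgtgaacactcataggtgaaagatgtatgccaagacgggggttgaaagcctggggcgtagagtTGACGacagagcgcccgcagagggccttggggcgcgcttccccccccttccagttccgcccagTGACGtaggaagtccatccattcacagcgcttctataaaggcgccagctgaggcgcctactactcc
Dusp5, chr19:53528895-53529144, plus strand: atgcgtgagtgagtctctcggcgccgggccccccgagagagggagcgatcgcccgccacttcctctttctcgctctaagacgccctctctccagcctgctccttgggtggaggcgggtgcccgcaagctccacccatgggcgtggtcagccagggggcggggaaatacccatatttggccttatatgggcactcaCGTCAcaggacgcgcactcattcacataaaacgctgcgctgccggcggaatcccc
Egr2, chr10:67537619-67537868, plus strand: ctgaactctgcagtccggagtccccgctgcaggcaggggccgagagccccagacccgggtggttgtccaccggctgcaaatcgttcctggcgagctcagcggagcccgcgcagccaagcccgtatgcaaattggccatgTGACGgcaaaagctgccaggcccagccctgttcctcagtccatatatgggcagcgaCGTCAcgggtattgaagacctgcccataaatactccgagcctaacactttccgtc
Dusp1, chr17:26508473-26508722, minus strand: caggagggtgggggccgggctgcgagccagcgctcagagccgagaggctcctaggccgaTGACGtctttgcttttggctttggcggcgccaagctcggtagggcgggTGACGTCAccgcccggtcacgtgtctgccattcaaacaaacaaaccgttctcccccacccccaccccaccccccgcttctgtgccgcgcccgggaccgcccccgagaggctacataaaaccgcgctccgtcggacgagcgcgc
Positions are those of the first base of a match, counted back from the start. In Fos, matches began at -129 and -66. The match at -66, a known calcium and cyclic AMP response element, precedes the TATA word of that promoter. Nr4a1 held 4 matches, at -233, -213, -69 and -40, and Dusp1 held a complete CRE whose overlapping core matches began at -143 and -140. Egr2 had matches at -111 and -55, Dusp5 at -55 and Csrnp1 at -142. Egr2 has 5 listed windows and Csrnp1 has 4, and for each the window printed is the first listed that held a match. Members whose counting intervals cover equality held the core too, among them Npas4, Fosb, Klf2, Klf4, Nfil3 and Plk2.

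**Figure D4:**
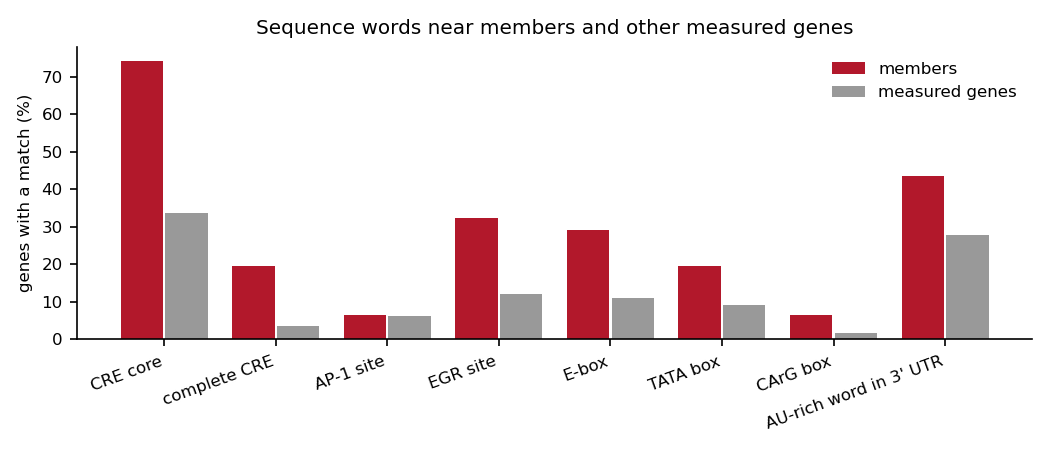
Percent of genes with a match to each promoter word and to an AU-rich word in the 3' untranslated region, for members (red) and for measured genes (grey), from 0. The CRE core was found for 74.2% of 31 members and 33.6% of measured genes, and the AP-1 word for 6.45% of members and 6.14% of measured genes.

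The members were short genes with few exons. For the 39 measured members the median gene span was 5799 bases with 4 exons in the leading transcript, against 25374 bases and 8 exons for 14588 measured protein-coding genes. Spans under 10000 bases were found for 26 of 39 members, or 66.7%, against 23.8%. A single-exon leading transcript was found for 6, or 15.4%, against 3.50%, namely Jun, Junb, Jund, Ier2, Ier5 and Gpr3. Span ran from 1522 bases for Ier2 to 117720 bases for Sgk1.

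AU-rich words, by which binding proteins direct rapid decay of mRNAs, were counted as TATTTAT in the 3' untranslated region of the leading transcript. At least 1 word was present in 17 of 39 members, or 43.6%, against 27.8% of measured protein-coding genes, at a median length of 1084 bases for members and 974 bases for measured genes. At least 2 words were present in 10 members, or 25.6%, against 9.62%, and the density was 0.712 words per kilobase against 0.296. Ptgs2 and Gpr3 held 6 words each, Inhba 5 and Arl5b 4. Sites from 4 of the members higher in replicate 2 are shown as DNA letters of the annotated transcripts (GENCODE M21), 5' to 3', with the first word in capitals.
Fos: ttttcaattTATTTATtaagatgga
Csrnp1: ctctgaattTATTTATttttttatg
Dusp1: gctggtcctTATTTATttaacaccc
Gpr3: gagaaggttTATTTATttatttatt
Arc, Nr4a1, Egr2, Dusp5 and Trib1, also higher in replicate 2, held no such word in the leading transcript.

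Transcript forms were read from the first deposited transcript table, as a share of the gene's TPM, with the second deposited quantification set beside it. For 12 members the annotation holds 1 transcript, and for 35 of the 40 both quantifications put the same transcript first. Full-length Fosb-201, which encodes 338 residues, made 66.2% of Fosb TPM in replicate 2 and 58.3% in replicate 1. The form Fosb-206, which encodes the 237 residues of the truncated protein known as deltaFosB that accumulates after repeated stimulation, made 19.4% in replicate 2 and 21.3% in replicate 1, and 31.4% in replicate 2 and 33.2% in replicate 1 in the second quantification. Its counts were 49.1 in replicate 2 and 55.45 in replicate 1, with deposited posterior SDs of 14.91 in replicate 2 and 15.05 in replicate 1, so the animals did not differ beyond that spread.

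Npas4 was level in total, and the shares of its forms differed between the animals in both quantifications. Forms annotated as retained intron or nonsense-mediated decay made 35.9% of Npas4 TPM in replicate 2 and 20.9% in replicate 1, and in the second quantification 32.5% in replicate 2 and 16.7% in replicate 1. The coding form Npas4-201 had 6.15 TPM in replicate 2 and 7.77 TPM in replicate 1, and 462.67 counts in replicate 2 and 595.82 in replicate 1, with posterior SDs of 30.1 in replicate 2 and 40.49 in replicate 1. The retained-intron form Npas4-202 had 135.7 counts (posterior SD 20.45) in replicate 2 and 85.39 (19.38) in replicate 1. The decay form Npas4-203 had 86.64 counts (25.79) in replicate 2 and 50.78 (36.6) in replicate 1, a difference within that spread. Plk2, also level in total, likewise had more of its TPM in forms that are not protein coding, 15.3% in replicate 2 and 9.50% in replicate 1, and 17.1% in replicate 2 and 10.7% in replicate 1 in the second quantification. The direction was not common to the members. In Dusp1 such forms made 12.1% of TPM in replicate 2 and 14.2% in replicate 1, and 12.8% in replicate 2 and 17.6% in replicate 1 in the second quantification. In Fos they made 28.3% in replicate 2 and 31.7% in replicate 1, and in the second quantification 44.0% in replicate 2 and 44.4% in replicate 1. In Egr3 they made 35.7% in replicate 2 and 41.7% in replicate 1, and in the second quantification 22.6% in replicate 2 and 22.7% in replicate 1, so for Fos and Egr3 the shares were nearly equal there.

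Nr4a1 forms could not be settled. Nr4a1-201 led with 81.5% in replicate 2 and 63.2% in replicate 1 in the first table, but Nr4a1-202, which encodes the same 601 residues, led in the second with 88.3% in replicate 2 and 89.1% in replicate 1. For Csrnp1 and Sgk1 the leading form also depended on the quantification. Arc-201 and Arc-202, both encoding 396 residues, made 67.6% and 32.4% of Arc in replicate 2, and 74.5% and 25.5% in replicate 1.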

How the data were processed

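Total RNA of 2 left cortex libraries was analysed from the tables the authors deposited. Per the file headers and the descriptions beside them, the deposited gene table and first transcript table hold expected counts and TPM from an alignment to the transcriptome (mm10, GENCODE M21). The second deposited transcript table holds estimated counts and TPM obtained from 1 file of reads without that alignment. The programs were not given in the sources used here. TPM is scaled over all rows of the deposited table, spike-ins included.

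Expected counts were rounded, and 26248 rows that name no gene were left out with the spike-ins; those rows held 2.48e-05% of counts in replicate 2 and 1.78e-05% in replicate 1. With edgeR 4.0.16 (R 4.3.3), log2 ratios were computed on CPM after TMM normalisation (prior count 2) where the mean count reached 10. Intervals are exact conditional binomial (Clopper-Pearson) at 95% and cover counting error only: without molecular identifiers, reads need not be independent molecules. A count of 0 allows up to 3 counts, or 0.0937 CPM in replicate 2 and 0.0913 CPM in replicate 1. The ratio calculation was checked on simulated counts that varied by counting error only, so the check does not cover variation between animals. Alternatives were spike-in scaling, size factors of DESeq2 1.42.0, log2(TPM + 1), log2(TPM + 0.1), a smaller prior count (0.5), other count minimums, the second quantification and leaving out each animal.

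All 40 members may be named. From the 2 related lists the 3 most abundant genes and the 3 with the highest and the lowest ratio at mean counts from 100 up were named. Promoters were allowed for at most 8 members with the word searched for and the largest ratios, and 6 are printed. The members and lists were chosen with earlier results of these data known. Reference mismatches from the CAST/EiJ genome copy were not measured.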

Additional observations from a re-analysis of the deposited data

How the results depend on the processing

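With spike-in scaling, under which the median over all genes was 0.32, the median became 0.54 for the members, 0.46 for regulators and 0.59 for effectors. Jund turned to 0.23, and 33 members were at least 25% higher, a count that includes the shift of all genes to about that limit. Relative to all genes the members' median was 0.23, against 0.22 with TMM. The 14 members past the limit kept their direction under every alternative in which they were measured, and 12 to 14 of them stayed past it. At 1.5-fold, 8 members were higher, of which 7 had mean counts from 100 up, where 0.640% of genes passed. With no count minimum 1 member was at least 20% lower and in the second quantification 1, in each case Atf3, which has few counts. Arl5b turned to -0.11 with log2(TPM + 1) and to -0.12 with log2(TPM + 0.1). The summed TPM was 1591 in the second quantification, and leaving out each animal gave 994 to 1169, a ratio of regulators to effectors of 1.24 to 1.35, and 38 members detected in either case. No paired analysis was possible because there is 1 library on each side. By mean count, depth limits Atf3 and Maff most, and then Rasd1, Gadd45g and Gpr3.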
